A study of Mus musculus with 9 samples.

Results

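Pretreatment with the synthetic LXR agonist T0901317 (T0) altered a few percent of the transcripts expressed by LPS-stimulated bone marrow-derived macrophages (BMDMs), and the changed genes reached well beyond lipid metabolism. The comparison was between 3 T0+LPS libraries and 3 LPS libraries. The count table held 32850 rows for 24061 gene symbols. A gene can have several rows, which may share bases, so the level of a row need not be that of its gene. Of these rows, 9548 for 9308 gene symbols had enough counts to be tested (edgeR's filterByExpr). Calls rest on an adjusted p under 0.05 in the quasi-likelihood test of edgeR, adjusted by the method of Benjamini and Hochberg over all tested rows. On that measure 166 rows were lower in T0+LPS (1.74% of the rows tested) and 128 were higher (1.34%), together 3.08%. The 12 called rows among the classical LXR lipid targets and the 8 among the adhesion and chemotaxis genes that the study follows were set aside. That left 158 rows lower and 116 rows higher, and these are described here by what their products do.

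BMDMs were from female C57BL/6J mice aged 8 to 10 weeks. Marrow cells were grown for 7 days in medium conditioned by L cells and then kept for 1 day without serum in 4% L-cell medium. T0+LPS cells received 500 nM T0 for 3 hr and then LPS at 10 ng/mL for 2 hr, with T0 left in the medium. LPS cells received DMSO in place of T0 for the same time and the same LPS, and Veh cells received DMSO without LPS. Every group held 3 libraries of polyadenylated RNA from cells of the same genotype, and the labels name no transgene or deletion. The study describes each replicate as a separately differentiated culture, but whether the cultures came from different mice is not given in the labels, so a p-value here measures the spread between these cultures.

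LXRα and LXRβ are nuclear receptors that bind oxysterols. With their partner RXR they switch on genes for cholesterol efflux, fatty acid synthesis and the removal of dying cells. LPS acts through TLR4, whose adaptors lead to NF-κB, AP-1 and interferon regulatory factors, and a macrophage so stimulated makes cytokines, prostaglandins and coagulation factors within hours. Agonist-bound LXR is known to hold down part of that response, by routes that are still debated.

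The 6 libraries held 13534065 to 15495207 counts, and levels are given as CPM, which are counts scaled to a common library size, by edgeR's TMM method, in the order replicate 1, 2 and 3. Summed CPM of 9 macrophage markers was 30260 to 31610 in LPS and 33020 to 34400 in T0+LPS. Most of each sum was Lyz2, at 19490 to 20730 CPM in LPS and 21570 to 22990 CPM in T0+LPS (edgeR adjusted p = 0.064). Among the 9 markers Mertk alone was called and Itgam alone was at 0 in all 6 libraries. Itgam has more than 1 row, each at 0, and rows of a gene may share bases, so this need not mean that the gene was silent. The cause was not tested. Marker sums for T cells, B cells, NK cells, neutrophils, mast cells, dendritic cells, fibroblasts and erythroid cells did not exceed 3.75 CPM in these 6 libraries. Some of these markers, such as Lck and Cd8a, likewise have several rows, each at 0. The low sums therefore cannot show that such cells were absent. The row for the ribosomal RNA precursor, Rn45s, stood at 1019.5, 1277 and 775 CPM in LPS and 1101, 2639 and 3187 CPM in T0+LPS, with T0+LPS 2 and T0+LPS 3 high and T0+LPS 1 within the LPS range, and the row was called higher (edgeR adjusted p = 0.022) but not in the fits without LPS 1, LPS 3, T0+LPS 2 or T0+LPS 3. The part of this row and of the macrophage marker sums in the other results was not tested. Because these are bulk samples, fewer cells of a kind and less RNA per cell cannot be told apart.

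Changes were small. In log2 units the median change was -0.34 over the 166 lower rows and 0.42 over the 128 higher rows, beside 0.0053 over all rows tested. A fall of over 1.5-fold was seen for 30 of the lower rows (0.314% of the rows tested), and a rise of that size for 40 of the higher rows (0.419%), 31 of them outside the lipid targets. The 3 T0+LPS libraries lay below or above all 3 LPS libraries in all but 4 of the lower and 2 of the higher rows. Over all tested rows, 9.38% had T0+LPS wholly below LPS and 9.74% wholly above. The number of calls depended on single libraries: 74 lower and 56 higher rows were called without LPS replicate 1, 102 and 85 without T0+LPS replicate 1, and 98 and 77 without T0+LPS replicate 2. The calls of 66 lower and 55 higher rows held in all 6 fits that left out 1 library.

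**Figure D1:**
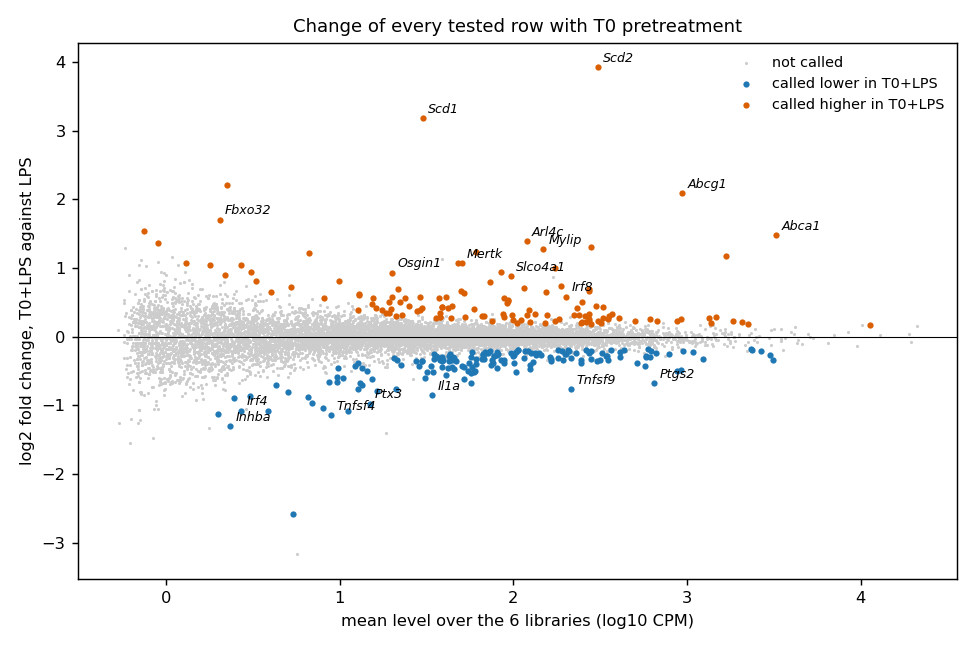
Log2 fold change with T0 for each of the 9548 tested rows (vertical axis) against the mean level over the 6 libraries in log10 CPM (horizontal axis). Grey points were not called, blue points were called lower and orange points called higher, and most of the 166 blue points lie within 1.5-fold of no change while named LXR targets and Scd1 and Scd2 stand highest.

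Sorted by function, lower rows were frequent among extracellular signals. Higher rows were frequent among G protein-coupled receptors and, on a separate list, among known LXR targets outside lipid transport and synthesis. The lists were drawn up with earlier results of these data known, so their shares are a description and not a test. Over every list but the 2 set aside, 5.58% of rows were lower and 2.89% higher, against 0.934% and 0.909% of rows on no list. Across 5 lists of cytokines and growth factors with their receptors and of chemokine ligands, 15 of 104 tested rows were lower (14.4%, against 1.74% of all rows) and none was higher. DESeq2 and limma-voom also called none of them higher, and 6 were higher at an unadjusted p under 0.05 in edgeR's test. The lower count was 9 without LPS replicate 1 or T0+LPS replicate 2. Transcription factor lists held 13 lower and 3 higher rows of 137 tested, with 7 lower without LPS replicate 1 and 6 without T0+LPS replicate 1. Lists of signaling proteins held 18 lower and 4 higher rows of 262, and the lower count dropped to 5 without LPS replicate 1, 10 without T0+LPS replicate 1 and 8 without T0+LPS replicate 2. Among 45 rows for chemoattractant and other G protein-coupled receptors, 3 were lower and 8 were higher (17.8%, against 1.34% of all rows), and the higher count was 3 without LPS replicate 1 and 5 without T0+LPS replicate 1 or T0+LPS replicate 2.

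**Figure D2:**
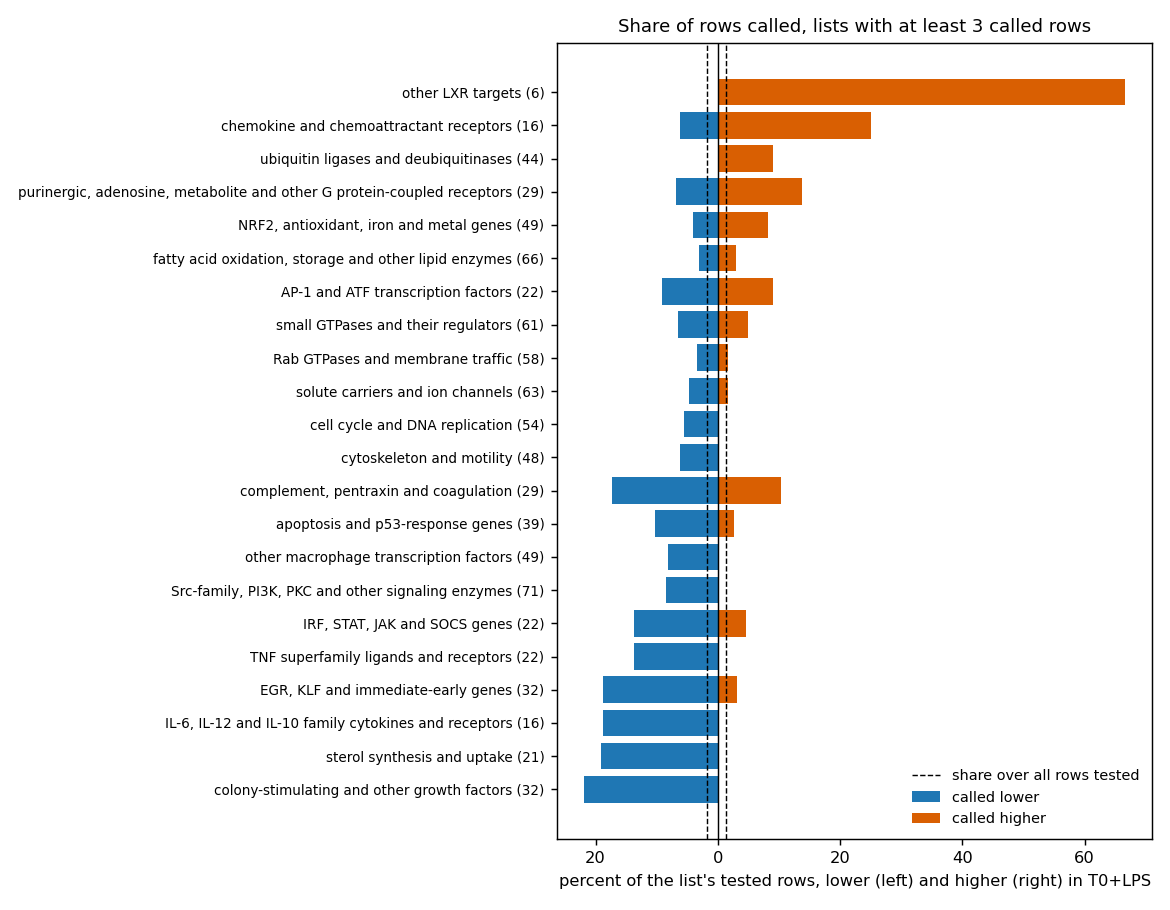
Share of each functional list called lower (blue, to the left) or higher (orange, to the right) in T0+LPS, in percent of the list's tested rows, for the lists with at least 3 called rows outside the 2 set aside; the number of tested rows is in parentheses. Dashed lines mark the shares over all tested rows, 1.74% lower and 1.34% higher, and the list of growth factors reaches 21.9% on the lower side with no bar on the higher side.

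Ligands by which macrophages instruct T cells were among the larger falls. In the list of TNF superfamily ligands and receptors, 3 of 22 tested rows were lower and none was higher (0 by DESeq2, 2 at an unadjusted p under 0.05), with a median log2 fold change of -0.14 over the list. Tnfsf4 (chr1:161395438-161418206, mm10) encodes OX40 ligand, a costimulator of activated T cells, and measured 13.7, 13.7 and 9.55 CPM in LPS and 4.86, 4.45 and 7.40 CPM in T0+LPS (log2 fold change -1.14 ± 0.18 SE, edgeR adjusted p = 0.0024). Every T0+LPS library was below every LPS library, and Veh libraries held 0, 0.251 and 0 CPM. Tnfsf9 (chr17:57105385-57107757), which encodes the 4-1BB ligand, was at 300.02, 258 and 252 CPM in LPS and 129, 168 and 178 CPM in T0+LPS (log2 fold change -0.77 ± 0.09 SE, edgeR adjusted p = 0.00025), again without overlap. Tnfsf15, encoding the T-cell costimulator TL1A, was at 74.4, 70.4 and 64.3 CPM in LPS and 37.6, 42.9 and 50.7 CPM in T0+LPS (log2 fold change -0.67 ± 0.09 SE, edgeR adjusted p = 0.00046). All of these calls held whichever library was left out. Their Veh levels were 3.04, 2.70 and 3.73 CPM for Tnfsf9 and 1.83, 1.44 and 1.75 CPM for Tnfsf15, so T0+LPS stayed far above the unstimulated level in each. By contrast, the B7 family costimulators showed no call: Cd80 was at 11.3, 8.46 and 8.18 CPM in LPS and 5.44, 6.68 and 8.57 CPM in T0+LPS (edgeR adjusted p = 0.25) and Cd86 at 19.4, 20.6 and 23.3 CPM in LPS and 26.0, 21.5 and 20.6 CPM in T0+LPS (edgeR adjusted p = 0.73), both with overlapping groups.

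Interleukins that shape T-cell responses followed the same direction in part. Of 16 tested rows for IL-6, IL-12 and IL-10 family cytokines and receptors, 3 were lower and none was higher (0 by DESeq2, 0 at an unadjusted p under 0.05). Il27, the p28 subunit of IL-27, was at 88.0, 82.7 and 88.3 CPM in LPS and 57.1, 68.5 and 72.7 CPM in T0+LPS (log2 fold change -0.38 ± 0.07 SE, edgeR adjusted p = 0.0081). Clcf1 encodes a ligand of the ciliary neurotrophic factor receptor and was at 8.60, 9.89 and 8.97 CPM in LPS and 3.93, 4.12 and 5.91 CPM in T0+LPS (log2 fold change -0.97 ± 0.16 SE, edgeR adjusted p = 0.0024). Both groups were fully apart for these genes and the calls held in every fit. Il23a, the p19 subunit of IL-23, was scarce, at 3.26, 2.52 and 2.46 CPM in LPS and 1.07, 1.24 and 1.43 CPM in T0+LPS (log2 fold change -1.13 ± 0.24 SE, edgeR adjusted p = 0.015), and its call was lost when LPS 1, T0+LPS 1 or T0+LPS 2 was left out (adjusted p from 0.058 to 0.11). Il12b, the p40 subunit shared by IL-12 and IL-23, stood at 73.8, 67.7 and 70.2 CPM in LPS and 55.0, 57.5 and 70.0 CPM in T0+LPS (edgeR adjusted p = 0.21) and Il6 at 24.8, 30.8 and 27.8 CPM in LPS and 22.6, 22.8 and 23.8 CPM in T0+LPS (edgeR adjusted p = 0.12). The groups overlapped for Il12b and not for Il6. Il10, which dampens macrophage activation, was at 7.19, 7.78 and 7.82 CPM in LPS and 6.01, 6.61 and 7.27 CPM in T0+LPS and also overlapped.

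In the IL-1 family and inflammasome list, from which Il1b was set aside as a gene the study itself follows, Il1a was the only row of 19 called, and it was lower. Il1a encodes an alarmin that signals through the IL-1 receptor, and its levels were 58.7, 37.9 and 35.8 CPM in LPS and 19.4, 22.4 and 31.2 CPM in T0+LPS (log2 fold change -0.85 ± 0.17 SE, edgeR adjusted p = 0.013). The groups did not overlap, and LPS 1 was well above the other LPS libraries. Without T0+LPS replicate 2 the edgeR adjusted p was 0.069. Neither DESeq2 (adjusted p = 0.12) nor edgeR with a robust prior (adjusted p = 0.33) called Il1a, while limma-voom did. Nlrp3, the sensor of the inflammasome, was at 2205, 2227 and 2339 CPM in LPS and 1987, 2146 and 2069 CPM in T0+LPS (edgeR adjusted p = 0.18), a difference that did not overlap and did not pass the test. Ccl22, a chemokine that attracts regulatory T cells and the only called row of 15 further chemokines, was at 36.4, 36.4 and 39.2 CPM in LPS and 21.9, 23.6 and 32.8 CPM in T0+LPS (log2 fold change -0.51 ± 0.11 SE, edgeR adjusted p = 0.021). Fits with 1 library fewer raised its adjusted p to 0.060 to 0.11 without LPS 1, T0+LPS 1 or T0+LPS 2.

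Growth factors and their receptors formed the list with the highest lower share. Of 32 tested rows, 7 were lower (21.9%) and none was higher (0 by DESeq2, 0 at an unadjusted p under 0.05), with 3 lower without LPS replicate 1 and 4 without T0+LPS replicate 2. Inhba (chr13:16014475-16027211), the subunit of activin A, was at 3.12, 3.41 and 3.47 CPM in LPS and 1.07, 1.31 and 1.62 CPM in T0+LPS (log2 fold change -1.31 ± 0.22 SE, edgeR adjusted p = 0.0031), and no library of either group came near the other group. Some type I receptors for the same superfamily fell as well. Acvr1b, a receptor of activin, was at 70.9, 70.0 and 78.3 CPM in LPS and 56.5, 62.1 and 56.7 CPM in T0+LPS (log2 fold change -0.32 ± 0.06 SE, edgeR adjusted p = 0.0081), and Tgfbr1, a receptor of TGF-β, at 659, 600.4 and 662 CPM in LPS and 514, 508 and 541 CPM in T0+LPS (log2 fold change -0.30 ± 0.05 SE, edgeR adjusted p = 0.0026). Calls of all 3 genes held in every fit.

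The same list held Edn1 and Flt1. Edn1, the precursor of the vasoconstrictor endothelin-1, was at 41.5, 37.6 and 32.9 CPM in LPS and 18.3, 26.2 and 29.0 CPM in T0+LPS against 0.0507, 0.188 and 0.110 CPM in Veh (log2 fold change -0.60 ± 0.13 SE, edgeR adjusted p = 0.015), and leaving out LPS 1 raised the adjusted p to 0.086. Flt1, which encodes VEGF receptor 1, was at 7.19, 6.82 and 5.21 CPM in LPS and 3.36, 3.47 and 4.09 CPM in T0+LPS (log2 fold change -0.81 ± 0.17 SE, edgeR adjusted p = 0.013). T0+LPS levels of Flt1 were thus near its Veh levels of 3.75, 4.01 and 4.11 CPM. The remaining called rows were Igf1r, the receptor of IGF-1 (log2 fold change -0.30 ± 0.08), and Sema4c, a semaphorin (log2 fold change -0.30 ± 0.08). Leaving out 1 library ended the calls of Flt1 (adjusted p 0.063 to 0.086 without LPS 1 or T0+LPS 2), Igf1r (adjusted p 0.080 to 0.20 without LPS 1, LPS 2, LPS 3, T0+LPS 1 or T0+LPS 2) and Sema4c (adjusted p 0.058 to 0.21 without LPS 1, LPS 2, LPS 3, T0+LPS 1, T0+LPS 2 or T0+LPS 3), in edgeR's test.

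**Figure D3:**
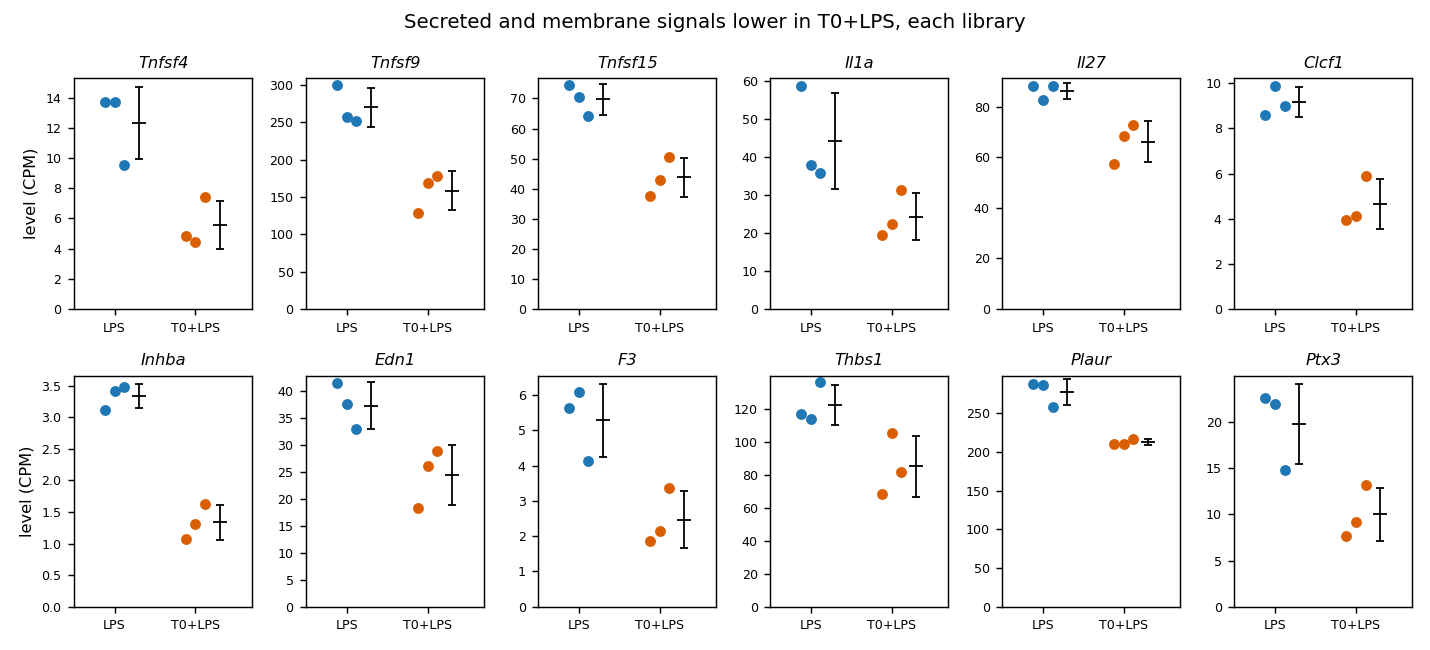
Level in CPM (vertical axes, from 0) of 12 genes for secreted or membrane-bound signals in each LPS (blue) and T0+LPS (orange) library, with the mean and SD of 3 libraries in black. In every panel the 3 T0+LPS points lie below the 3 LPS points, for Tnfsf9 at 129, 168 and 178 CPM against 300.02, 258 and 252 CPM.

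Called coagulation and complement genes differed in direction. Of 29 tested rows for complement, pentraxins and coagulation, 5 were lower and 3 were higher, against 4 lower and 1 higher without LPS replicate 1. The 5 lower rows were a pentraxin and 4 genes listed with coagulation, while the 3 higher rows were all complement genes. F3, tissue factor, which starts the extrinsic pathway, was at 5.64, 6.07 and 4.13 CPM in LPS and 1.86, 2.16 and 3.38 CPM in T0+LPS (log2 fold change -1.09 ± 0.22 SE, edgeR adjusted p = 0.013). Its Veh levels were 0.761, 1.94 and 0.932 CPM, and leaving out LPS 1, LPS 2 or T0+LPS 2 ended the call (adjusted p 0.0505 to 0.071). Plaur, the urokinase receptor, was at 287, 286 and 259 CPM in LPS and 210.3, 211 and 217 CPM in T0+LPS (log2 fold change -0.38 ± 0.05 SE, edgeR adjusted p = 0.00044), with the 3 T0+LPS libraries close to each other. Thbs1, thrombospondin 1, was at 117, 114 and 136 CPM in LPS and 68.7, 105 and 81.9 CPM in T0+LPS (log2 fold change -0.52 ± 0.11 SE, edgeR adjusted p = 0.018), with T0+LPS 2 close to the LPS libraries and an adjusted p of 0.080 without T0+LPS 3. DESeq2 did not call Thbs1 (adjusted p = 0.16). The anticoagulant genes Thbd, thrombomodulin, and Procr, the protein C receptor, had log2 fold changes of 0.21 ± 0.17 and 0.01 ± 0.05 and overlapping groups.

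Ptx3, a soluble pattern recognition protein of the pentraxin family, was at 22.6, 21.9 and 14.8 CPM in LPS and 7.65, 9.16 and 13.2 CPM in T0+LPS (log2 fold change -0.98 ± 0.18 SE, edgeR adjusted p = 0.0052). T0+LPS 3 approached the lowest LPS library. Properdin, encoded by Cfp, stabilizes the convertase of the alternative complement pathway. Cfp rose from 259.9, 298 and 286 CPM in LPS to 362, 411 and 358 CPM in T0+LPS (log2 fold change 0.42 ± 0.06 SE, edgeR adjusted p = 0.0011), with every T0+LPS library higher. The C1q chains, which start the classical pathway, rose by less. C1qc was at 1259.8, 1404 and 1288 CPM in LPS and 1629.8, 1651 and 1512 CPM in T0+LPS (log2 fold change 0.28 ± 0.05 SE, edgeR adjusted p = 0.0055) and C1qb at 1872, 2052 and 1837 CPM in LPS and 2192, 2297 and 2169 CPM in T0+LPS (log2 fold change 0.21 ± 0.05 SE, edgeR adjusted p = 0.028). C1qa, the neighboring chain, showed a log2 fold change of 0.22 ± 0.06 and an edgeR adjusted p of 0.053, with its T0+LPS libraries also wholly above LPS. Without 1 library the edgeR calls of C1qc (adjusted p 0.061 without LPS 1) and C1qb (adjusted p 0.051 to 0.20 without LPS 1, LPS 3, T0+LPS 1, T0+LPS 2 or T0+LPS 3) were lost.

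Several transcriptional regulators that LPS had reduced were higher with T0. The levels of the LPS libraries enter both this description and the comparison of LPS with Veh, so the 3 groups are given side by side. Irf8 (chr8:120736376-120756692), which directs monocyte and macrophage development, was at 409.7, 423 and 407 CPM in Veh, and at 165, 160.0 and 157 CPM in LPS and 238, 239 and 244 CPM in T0+LPS (log2 fold change 0.58 ± 0.05 SE, edgeR adjusted p = 1.3e-06). For Irf8, T0+LPS stood between LPS and Veh with no overlap of any group. Atf3, a stress-induced factor that restrains inflammatory genes, was at 981, 956 and 964 CPM in Veh and 215, 223 and 197 CPM in LPS and 363, 319 and 326 CPM in T0+LPS (log2 fold change 0.67 ± 0.06 SE, edgeR adjusted p = 6.2e-06). Irf2bp2, a corepressor that binds IRF2, was at 274, 257 and 265 CPM in Veh and 86.0, 96.9 and 80.2 CPM in LPS and 166, 138 and 126 CPM in T0+LPS (log2 fold change 0.71 ± 0.09 SE, edgeR adjusted p = 0.00027). T0+LPS replicates of Atf3 and Irf2bp2 remained well under the Veh libraries.

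Id2 and Irf4 did not share that order. Id2, an inhibitor of basic helix-loop-helix factors, was at 99.97, 86.4 and 99.7 CPM in Veh and 139.7, 151 and 135 CPM in LPS and 240.0, 235 and 230.1 CPM in T0+LPS (log2 fold change 0.73 ± 0.05 SE, edgeR adjusted p = 3.1e-07), so that T0+LPS was the highest group. Irf4, a relative of Irf8 linked to alternative activation, was at 5.17, 6.52 and 5.81 CPM in Veh and 4.01, 3.14 and 3.98 CPM in LPS and 1.43, 1.64 and 2.14 CPM in T0+LPS (log2 fold change -1.08 ± 0.21 SE, edgeR adjusted p = 0.010), so that T0+LPS was the lowest group. Irf4 counts were few, and the test gave an adjusted p of 0.061 when LPS 1 was left out and 0.051 without T0+LPS replicate 2. Calls of Irf8, Atf3, Irf2bp2 and Id2 held in all 6 fits.

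**Figure D4:**
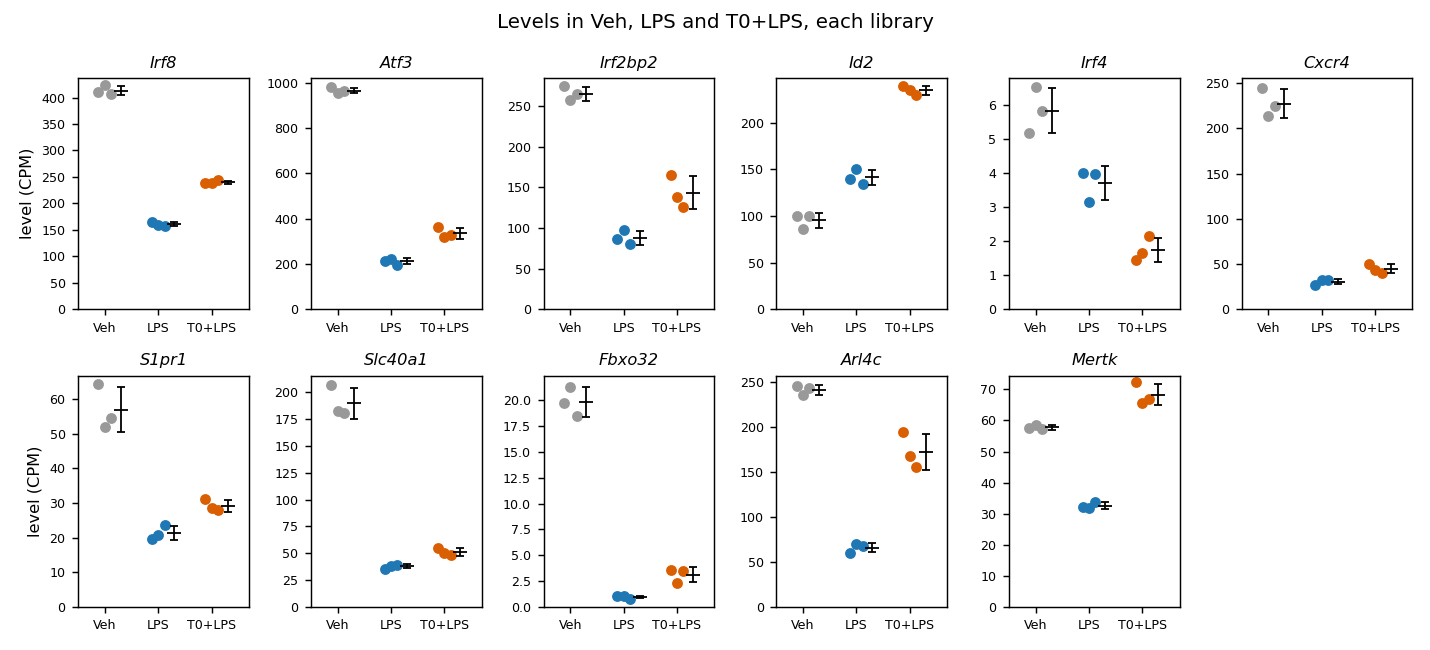
Level in CPM (vertical axes, from 0) in each Veh (grey), LPS (blue) and T0+LPS (orange) library for 11 genes called between T0+LPS and LPS, with the mean and SD of 3 libraries in black. Irf4 is lowest and Id2 and Mertk are highest in T0+LPS, while in the other 8 panels T0+LPS lies between LPS and Veh, as for Irf8 at 238, 239 and 244 CPM.

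Some AP-1 and immediate-early genes were lower. Of 22 rows for AP-1 and ATF factors, 2 were lower and 2 were higher, Atf3 among the higher. Of 32 tested rows for EGR, KLF and immediate-early genes, 6 were lower (18.8%) and Id2 was higher, with 4 lower without LPS replicate 1 or T0+LPS replicate 1. In 11 of the 32 rows T0+LPS was wholly below LPS (9.38% over all rows). Csrnp1, a nuclear protein induced early after stimulation, was at 65.4, 60.1 and 63.9 CPM in LPS and 39.8, 41.4 and 42.5 CPM in T0+LPS (log2 fold change -0.61 ± 0.06 SE, edgeR adjusted p = 1.6e-05). Junb, a subunit of AP-1, was at 679, 669 and 668 CPM in LPS and 526, 543 and 564 CPM in T0+LPS (log2 fold change -0.30 ± 0.04 SE, edgeR adjusted p = 0.00096), with no overlap between groups. Ier2 was at 73.4, 71.9 and 63.3 CPM in LPS and 53, 48.0 and 56.7 CPM in T0+LPS (log2 fold change -0.40 ± 0.07 SE, edgeR adjusted p = 0.0048) and Gadd45b, a stress-induced activator of p38 signaling, at 391, 373 and 373 CPM in LPS and 296, 313 and 322 CPM in T0+LPS (log2 fold change -0.29 ± 0.05 SE, edgeR adjusted p = 0.0026). Fosl2, the Fra-2 subunit of AP-1, had a log2 fold change of -0.29 ± 0.06, Zfp36, which destabilizes cytokine mRNAs, -0.24 ± 0.05, and Klf3 -0.23 ± 0.05. Single libraries decided the edgeR calls of Fosl2 (adjusted p 0.058 to 0.10 without LPS 1 or T0+LPS 1), Zfp36 (adjusted p 0.0501 to 0.099 without LPS 1, LPS 2, T0+LPS 1 or T0+LPS 2) and Klf3 (adjusted p 0.058 to 0.13 without LPS 1, T0+LPS 1 or T0+LPS 3). Jun, another AP-1 subunit, pointed the other way at 84.9, 94.7 and 87.0 CPM in LPS and 113, 101 and 96.1 CPM in T0+LPS (edgeR adjusted p = 0.11). Fos and Egr2 overlapped between groups.

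Some feedback inhibitors of cytokine and MAP kinase signaling were lower as well. Socs3, which blocks JAK-STAT signaling downstream of IL-6, was at 616, 563 and 576 CPM in LPS and 398, 460.1 and 488 CPM in T0+LPS (log2 fold change -0.38 ± 0.06 SE, edgeR adjusted p = 0.0030). Dusp2, a nuclear phosphatase of MAP kinases, was at 50.7, 53.6 and 49.5 CPM in LPS and 36.6, 36.3 and 40.2 CPM in T0+LPS (log2 fold change -0.44 ± 0.06 SE, edgeR adjusted p = 0.0012). Rgs16, which shortens signaling by G protein-coupled receptors, was at 24.9, 19.9 and 18.1 CPM in LPS and 10.3, 10.5 and 15.3 CPM in T0+LPS (log2 fold change -0.80 ± 0.15 SE, edgeR adjusted p = 0.0055). These 3 genes were fully apart between groups and were called in every fit. Cish, a SOCS family member, was at 32.3, 24.0 and 24.0 CPM in LPS and 12, 14.4 and 20.7 CPM in T0+LPS (log2 fold change -0.76 ± 0.16 SE, edgeR adjusted p = 0.014) and Spry1, a Sprouty inhibitor of receptor tyrosine kinases, at 4.01, 4.09 and 3.76 CPM in LPS and 2.00, 1.70 and 2.79 CPM in T0+LPS (log2 fold change -0.86 ± 0.20 SE, edgeR adjusted p = 0.032). Their edgeR calls were lost in some fits, namely Cish (adjusted p 0.077 to 0.082 without LPS 1 or T0+LPS 2) and Spry1 (adjusted p 0.080 to 0.15 without LPS 1, LPS 2, T0+LPS 1 or T0+LPS 2). DESeq2 called neither Cish (adjusted p = 0.12) nor Spry1 (adjusted p = 0.079), and edgeR with a robust prior did not call Cish (adjusted p = 0.17). Across the 18 MAP kinase phosphatase and Sprouty-type rows, 2 were lower and none was higher (0 by DESeq2, 1 at an unadjusted p under 0.05), with a median of -0.097.

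NF-κB genes themselves gave no call. Of 19 rows for NF-κB subunits, inhibitors and feedback genes, none was called lower or higher by edgeR, DESeq2 or limma-voom, although 6 were lower and none higher at an unadjusted p under 0.05. In 9 of the 19 rows T0+LPS was wholly below LPS (9.38% over all rows), and the median log2 fold change was -0.084. Nfkbia, the inhibitor IκBα, was at 1516, 1531 and 1396 CPM in LPS and 1287, 1378 and 1377 CPM in T0+LPS (edgeR adjusted p = 0.19), and Tnfaip3, the deubiquitinase A20, at 21.1, 21.0 and 20.8 CPM in LPS and 13.4, 17.6 and 18.4 CPM in T0+LPS (edgeR adjusted p = 0.11). Malt1, a protease that activates NF-κB, was on no list but was among the most highly counted lower rows, at 1409, 1284 and 1405 CPM in LPS and 1025, 1056 and 1195 CPM in T0+LPS (log2 fold change -0.32 ± 0.06 SE, edgeR adjusted p = 0.0049). Of 45 interferon-stimulated rows, 2 were lower and none was higher (0 by DESeq2, 1 at an unadjusted p under 0.05). They were Ifi205, a DNA-binding protein of the PYHIN family, at 43.7, 41.6 and 37.3 CPM in LPS and 25.2, 29.5 and 30.8 CPM in T0+LPS (log2 fold change -0.52 ± 0.08 SE, edgeR adjusted p = 0.0024), and Gbp5, a guanylate-binding protein, at 705, 599 and 662 CPM in LPS and 412, 499 and 555 CPM in T0+LPS (log2 fold change -0.42 ± 0.08 SE, edgeR adjusted p = 0.010). Without LPS replicate 1 the edgeR adjusted p of Gbp5 was 0.067. Neither DESeq2 (adjusted p = 0.067) nor edgeR with a robust prior (adjusted p = 0.15) called Gbp5. Mndal, another PYHIN family gene, was not on that list and is named here after its values were seen. Its mean was 199.5 CPM in LPS and 160.2 CPM in T0+LPS (log2 fold change -0.32 ± 0.05 SE, edgeR adjusted p = 0.0014), with no overlap between groups. Ifnb1 was scarce, at 1.11, 1.84 and 0.796 CPM in LPS and 1.36, 0.654 and 0.584 CPM in T0+LPS, and overlapped.

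Some receptors for lipid mediators, protons and chemoattractants rose. Ptger2 encodes EP2, a prostaglandin E2 receptor that raises cyclic AMP, and was at 16.6, 15.4 and 17.9 CPM in LPS and 26.5, 29.7 and 24.8 CPM in T0+LPS (log2 fold change 0.70 ± 0.09 SE, edgeR adjusted p = 0.00043). Ptgs2, the inducible cyclooxygenase that supplies its ligand and the only called row of 17 for prostaglandin and leukotriene synthesis, went down over the same libraries, at 829.6, 776 and 782 CPM in LPS and 425, 512 and 555 CPM in T0+LPS (log2 fold change -0.68 ± 0.07 SE, edgeR adjusted p = 5.7e-05). Gpr65, a proton-sensing receptor coupled to cyclic AMP, was at 76.7, 77.2 and 74.5 CPM in LPS and 121, 106 and 104 CPM in T0+LPS (log2 fold change 0.54 ± 0.06 SE, edgeR adjusted p = 9.5e-05), and its LPS levels were close to those in Veh, 76.6, 80.4 and 77.9 CPM. Cxcr4, the receptor of CXCL12, was at 244, 213 and 225 CPM in Veh and 27.1, 32.0 and 31.8 CPM in LPS and 50.1, 43.5 and 40.4 CPM in T0+LPS (log2 fold change 0.56 ± 0.09 SE, edgeR adjusted p = 0.0019). S1pr1, a sphingosine 1-phosphate receptor used in leukocyte egress, was at 64.4, 52.0 and 54.6 CPM in Veh and 19.5, 20.9 and 23.6 CPM in LPS and 31.0, 28.5 and 28.0 CPM in T0+LPS (log2 fold change 0.45 ± 0.08 SE, edgeR adjusted p = 0.0066). For Cxcr4 and S1pr1 the difference between T0+LPS and LPS was small beside the gap between LPS and Veh. Without LPS replicate 1 the adjusted p of S1pr1 was 0.056.

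Other receptors changed less firmly. Higher rows included Fpr1, the formyl peptide receptor (log2 fold change 0.42 ± 0.10), C3ar1, the receptor of complement C3a (0.19 ± 0.05), Ptger1, the prostaglandin receptor EP1 (0.32 ± 0.07), and Lpar6, a lysophosphatidic acid receptor (0.56 ± 0.13). Each lost its edgeR call in some fit, namely Fpr1 (adjusted p 0.085 to 0.19 without LPS 1, T0+LPS 1 or T0+LPS 2), C3ar1 (adjusted p 0.074 to 0.28 without LPS 1, LPS 2, T0+LPS 1 or T0+LPS 2), Ptger1 (adjusted p 0.095 without LPS 1) and Lpar6 (adjusted p 0.067 to 0.13 without LPS 1, LPS 2, LPS 3, T0+LPS 1 or T0+LPS 2). The lower receptors were Adora2a, an adenosine receptor coupled to cyclic AMP, at 91.7, 83.0 and 80.9 CPM in LPS and 59.4, 64.1 and 68.2 CPM in T0+LPS (log2 fold change -0.41 ± 0.06 SE, edgeR adjusted p = 0.0019), Ptafr, the receptor of platelet-activating factor (log2 fold change -0.23 ± 0.04), and the orphan receptor Gpr85 (log2 fold change -0.20 ± 0.05). Calls of Ptafr (adjusted p 0.080 without LPS 1) and Gpr85 (adjusted p 0.055 to 0.26 without LPS 1, LPS 2, T0+LPS 1, T0+LPS 2 or T0+LPS 3) were lost, whereas that of Adora2a held. Ccr2, the receptor that draws monocytes toward Ccl2, had a log2 fold change of 0.01 ± 0.08 with overlapping groups. Among 22 innate sensor rows only Tlr9, the receptor of unmethylated DNA, was called, at 28.3, 36.8 and 35.0 CPM in LPS and 44.2, 43.6 and 39.5 CPM in T0+LPS (log2 fold change 0.34 ± 0.09 SE, edgeR adjusted p = 0.046), and its call was lost in 4 fits, with an adjusted p of 0.054 to 0.25 without LPS 1, T0+LPS 1, T0+LPS 2 or T0+LPS 3. Tlr4 and its co-receptor Cd14, which sense LPS, had log2 fold changes of 0.09 ± 0.06 and 0.10 ± 0.05.

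Known LXR targets outside lipid transport and synthesis gave some of the largest rises. Of 6 tested rows on that list, 4 were higher (66.7%) and none was lower, but the list was drawn up from genes known to respond to LXR. Arl4c (chr1:88698226-88702191), an Arf-like GTPase, was at 246, 236 and 244 CPM in Veh and 60.1, 69.9 and 67.9 CPM in LPS and 195, 168 and 156 CPM in T0+LPS (log2 fold change 1.39 ± 0.08 SE, edgeR adjusted p = 2.5e-08). Mylip (chr13:45389742-45411940) encodes IDOL, the ubiquitin ligase that marks the LDL receptor for degradation, and was at 78.7, 83.2 and 97.9 CPM in LPS and 209, 212 and 205 CPM in T0+LPS (log2 fold change 1.27 ± 0.07 SE, edgeR adjusted p = 1.2e-08). Mertk, the receptor tyrosine kinase that engulfs apoptotic cells, was at 57.6, 58.7 and 57.2 CPM in Veh and 32.0, 31.9 and 33.9 CPM in LPS and 72.2, 65.8 and 66.9 CPM in T0+LPS (log2 fold change 1.07 ± 0.06 SE, edgeR adjusted p = 3.3e-08), so T0+LPS exceeded both other groups. Cd5l, a secreted inhibitor of apoptosis, was at 90.9, 122 and 106 CPM in LPS and 152, 144 and 122 CPM in T0+LPS (log2 fold change 0.39 ± 0.09 SE, edgeR adjusted p = 0.029). That call was lost with adjusted p 0.10 to 0.17 without LPS 1, T0+LPS 1 or T0+LPS 2.

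A few further ubiquitin ligases were higher. Of 44 rows for ubiquitin ligases and deubiquitinases on a separate list, 4 were higher (9.09%) and none was lower (0 by DESeq2, 1 at an unadjusted p under 0.05), with 2 higher when LPS 1, T0+LPS 2 or T0+LPS 3 was left out. Fbxo32, the muscle atrophy F-box protein atrogin-1, was at 19.7, 21.3 and 18.5 CPM in Veh and at 1.04, 1.02 and 0.796 CPM in LPS and 3.58, 2.29 and 3.51 CPM in T0+LPS (log2 fold change 1.70 ± 0.27 SE, edgeR adjusted p = 0.0019). Although its LPS libraries held about 1 CPM, the groups were apart and the call held in every fit. Spsb4, a substrate receptor of cullin ligases, was at 26.7, 26.0 and 22.6 CPM in LPS and 32.5, 32.9 and 33.4 CPM in T0+LPS (log2 fold change 0.39 ± 0.08 SE, edgeR adjusted p = 0.0083), also called in every fit. Cblb, which restrains receptor signaling, had a log2 fold change of 0.21 ± 0.05, and Asb2, a cullin substrate receptor, was at 0.223, 0.546 and 0.362 CPM in LPS and 1.07, 1.24 and 1.04 CPM in T0+LPS (log2 fold change 1.53 ± 0.38 SE, edgeR adjusted p = 0.041). Some fits lost the edgeR calls of Cblb (adjusted p 0.082 to 0.19 without LPS 1, LPS 2, T0+LPS 2 or T0+LPS 3) and Asb2 (adjusted p 0.084 to 0.23 without LPS 1, LPS 3, T0+LPS 1, T0+LPS 2 or T0+LPS 3).

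Genes of heme, iron and redox handling were split. Of 49 rows for NRF2 targets, antioxidant enzymes and metal transport, 4 were higher and 2 were lower. Hmox1, heme oxygenase 1, was at 316, 337 and 332 CPM in LPS and 437, 420.4 and 383 CPM in T0+LPS (log2 fold change 0.33 ± 0.05 SE, edgeR adjusted p = 0.0021). Slc40a1 encodes ferroportin, the iron exporter, and was at 206, 183 and 181 CPM in Veh and 35.6, 38.1 and 39.2 CPM in LPS and 55.2, 50.2 and 48.5 CPM in T0+LPS (log2 fold change 0.45 ± 0.07 SE, edgeR adjusted p = 0.0016). Osgin1, an oxidative stress-induced growth inhibitor, was at 10.5, 15.4 and 15.6 CPM in LPS and 31.2, 24.3 and 23.8 CPM in T0+LPS (log2 fold change 0.93 ± 0.13 SE, edgeR adjusted p = 0.0011). All 3 were apart between groups and held in every fit, whereas Gpx1, glutathione peroxidase 1 (log2 fold change 0.27 ± 0.06), did not, with adjusted p of 0.071 to 0.090 without LPS 1, T0+LPS 1 or T0+LPS 3. The lower rows were both transporters. Slc7a11, the cystine-glutamate exchanger, was at 393, 359 and 427 CPM in LPS and 313, 309 and 308 CPM in T0+LPS (log2 fold change -0.34 ± 0.06 SE, edgeR adjusted p = 0.0026), and Slc39a10, a zinc importer, at 99.3, 95.9 and 100.4 CPM in LPS and 75.4, 79.8 and 78.7 CPM in T0+LPS (log2 fold change -0.34 ± 0.05 SE, edgeR adjusted p = 0.0014). Nfe2l2, which encodes NRF2, had a log2 fold change of 0.04 ± 0.04 and overlapped.

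Some enzymes of sterol synthesis were lower. Of 21 rows for sterol synthesis and uptake, 4 were lower (19.0%) and none was higher (0 by DESeq2, 0 at an unadjusted p under 0.05), with a median of -0.14 and 1 lower row without LPS replicate 1 or T0+LPS replicate 2. Sqle, squalene epoxidase, was at 56.9, 53.8 and 47.4 CPM in LPS and 38.8, 33.3 and 41.5 CPM in T0+LPS (log2 fold change -0.48 ± 0.08 SE, edgeR adjusted p = 0.0048), and its call held in every fit. Hsd17b7, a sterol ketone reductase, and Cyp51, the lanosterol demethylase, had log2 fold changes of -0.46 ± 0.10 and -0.39 ± 0.08. Without 1 library the edgeR calls of Hsd17b7 (adjusted p 0.053 to 0.094 without LPS 1, T0+LPS 1 or T0+LPS 2) and Cyp51 (adjusted p 0.078 to 0.12 without LPS 1, T0+LPS 2 or T0+LPS 3) were lost. T0+LPS was wholly below LPS in 8 of the 21 rows (9.38% over all rows), these 3 genes included.

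Glucose uptake and cell cycle entry were touched at single steps. Hk2, hexokinase 2, was at 101, 93.5 and 88.6 CPM in LPS and 71.5, 79.1 and 73.7 CPM in T0+LPS (log2 fold change -0.33 ± 0.06 SE, edgeR adjusted p = 0.0051), and Slc2a1, the glucose transporter GLUT1, had a log2 fold change of -0.20 ± 0.04, which was lost with adjusted p 0.079 to 0.18 without LPS 1, T0+LPS 2 or T0+LPS 3. These were the 2 lower rows of 34 for glycolysis, where none was higher (0 by DESeq2, 4 at an unadjusted p under 0.05). Among 54 cell cycle rows 3 were lower and none was higher (0 by DESeq2, 1 at an unadjusted p under 0.05). Cyclin D1, Ccnd1, was at 36.0, 38.5 and 41.0 CPM in LPS and 26.0, 28.9 and 30.6 CPM in T0+LPS (log2 fold change -0.43 ± 0.08 SE, edgeR adjusted p = 0.0049) and cyclin D2, Ccnd2, at 50.4, 46.9 and 49.1 CPM in LPS and 34.5, 33.8 and 38.0 CPM in T0+LPS (log2 fold change -0.46 ± 0.07 SE, edgeR adjusted p = 0.0010). E2f8, an atypical E2F repressor, was at 58.5, 56.3 and 59.1 CPM in LPS and 39.98, 43.7 and 45.8 CPM in T0+LPS (log2 fold change -0.42 ± 0.06 SE, edgeR adjusted p = 0.0013). LPS had lowered Ccnd1 from 50.7, 63.3 and 59.9 CPM in Veh and raised Ccnd2 from 5.17, 8.53 and 6.53 CPM, and T0+LPS was below LPS for both, in every fit.

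Survival genes and small GTPases showed mixed calls. Of 39 apoptosis and p53-response rows, 4 were lower and 1 was higher. Ccng2, cyclin G2, was at 131, 129.6 and 123 CPM in LPS and 95.8, 106 and 107 CPM in T0+LPS (log2 fold change -0.31 ± 0.05 SE, edgeR adjusted p = 0.0042) and held in every fit. The row for Cdkn1a, the inhibitor p21, was at 14.6, 13.6 and 17.2 CPM in LPS and 5.44, 9.69 and 6.23 CPM in T0+LPS (log2 fold change -1.08 ± 0.17 SE, edgeR adjusted p = 0.0018), but only 90 of its bases are shared with no other row, so its value is uncertain. Pim2 and Pim3 encode related survival kinases, and Pim2 had a log2 fold change of 0.61 ± 0.13 while Pim3 had -0.25 ± 0.06. Leaving out 1 library ended the edgeR calls of Pim2 (adjusted p 0.058 to 0.074 without LPS 1 or T0+LPS 2) and Pim3 (adjusted p 0.077 to 0.16 without LPS 1, LPS 2, T0+LPS 1, T0+LPS 2 or T0+LPS 3).

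Of 61 rows for small GTPases and their regulators, 4 were lower and 3 were higher, against 1 lower and none higher without LPS replicate 1, 1 of each without T0+LPS replicate 1, and 2 lower and 1 higher without T0+LPS replicate 2. Rhob, a GTPase of endosomes, was at 1118, 976 and 964 CPM in LPS and 661, 696 and 813 CPM in T0+LPS (log2 fold change -0.49 ± 0.07 SE, edgeR adjusted p = 0.0011), and the call held in every fit. Rac2, the GTPase of the phagocyte oxidase, was at 359.5, 391 and 351 CPM in LPS and 439.7, 439 and 445 CPM in T0+LPS (log2 fold change 0.27 ± 0.05 SE, edgeR adjusted p = 0.0051), whose adjusted p rose to 0.0502 when LPS 1 was left out. Rac2 was higher in all 3 T0+LPS libraries, which lay close together. Among 48 cytoskeleton and motility rows, 3 were lower and none was higher (0 by DESeq2, 4 at an unadjusted p under 0.05): ezrin, Ezr, at 109.6, 105 and 116 CPM in LPS and 93.6, 90.8 and 89.9 CPM in T0+LPS (log2 fold change -0.27 ± 0.05 SE, edgeR adjusted p = 0.0082), α-actinin 1, Actn1 (log2 fold change -0.28 ± 0.05), and pleckstrin, Plek (-0.26 ± 0.05). The calls of Actn1 (adjusted p 0.062 without LPS 1) and Plek (adjusted p 0.069 without LPS 1) were lost.

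Several lists gave no call at all. None of 70 rows for cytosolic ribosomal proteins was called by edgeR, DESeq2 or limma-voom (none lower and 4 higher at an unadjusted p under 0.05), and their median log2 fold change was 0.045. None of 65 rows of the mitochondrial respiratory chain was called by any of the 3 tools (none lower and 2 higher at an unadjusted p under 0.05), with a median of 0.027. None of 20 other rows for regulators of cytokine mRNA decay, a list without Zfp36, was called by those tools or passed an unadjusted p of 0.05. None of 18 rows for nitric oxide, arginine, itaconate and tryptophan metabolism was called by the 3 tools either, with 5 lower and 1 higher at an unadjusted p under 0.05. In that list Nos2, the inducible nitric oxide synthase, was at 30.3, 26.3 and 32.7 CPM in LPS and 16.2, 26.5 and 24.7 CPM in T0+LPS (edgeR adjusted p = 0.16) and Arg2, the mitochondrial arginase, at 7.79, 7.51 and 8.90 CPM in LPS and 11.6, 11.3 and 9.87 CPM in T0+LPS (edgeR adjusted p = 0.068). Arg2 was higher in all 3 T0+LPS libraries, and Nos2 overlapped. Lysosome and autophagy rows gave 2 calls of 51, both higher, of which Ctsc, cathepsin C, had a log2 fold change of 0.23 ± 0.06 and the row for Ctsa rests on 78 bases that no other row shares. Neither edgeR call held in most fits, with losses for Ctsc (adjusted p 0.065 to 0.32 without LPS 1, T0+LPS 1, T0+LPS 2 or T0+LPS 3) and Ctsa (adjusted p 0.052 to 0.12 without LPS 1, LPS 2, T0+LPS 1, T0+LPS 2 or T0+LPS 3).

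The largest rises on no lipid list included enzymes and transporters. Eepd1, an endonuclease-domain protein of the plasma membrane, was at 81.7, 86.5 and 85.0 CPM in Veh and 32.9, 40.1 and 36.3 CPM in LPS and 93.3, 81.7 and 82.4 CPM in T0+LPS (log2 fold change 1.23 ± 0.07 SE, edgeR adjusted p = 5.6e-08). Tmem86a, a lysoplasmalogenase, was at 104, 106 and 106 CPM in Veh and 30.9, 32.5 and 29.6 CPM in LPS and 70.2, 61.5 and 63.6 CPM in T0+LPS (log2 fold change 1.07 ± 0.07 SE, edgeR adjusted p = 1.0e-07). Pcyox1, which cleaves prenylcysteines to aldehydes and hydrogen peroxide, was at 202, 212 and 211 CPM in LPS and 339, 350.0 and 325 CPM in T0+LPS (log2 fold change 0.70 ± 0.05 SE, edgeR adjusted p = 1.9e-07). T0+LPS levels of Eepd1 were close to its Veh levels, and Pcyox1 was above both other groups. Lipn, a lipase of the acid lipase family, was at 4.52, 3.89 and 3.62 CPM in LPS and 8.51, 8.57 and 10.8 CPM in T0+LPS (log2 fold change 1.22 ± 0.15 SE, edgeR adjusted p = 0.00028), and Slco4a1, an organic anion transporter, at 57.7, 74.6 and 71.1 CPM in LPS and 118, 139 and 118 CPM in T0+LPS (log2 fold change 0.88 ± 0.08 SE, edgeR adjusted p = 1.6e-05). Neurl2, an adaptor of ubiquitin ligases, rose from 6.68, 7.57 and 7.38 CPM to 14, 11.5 and 12.5 CPM (log2 fold change 0.81 ± 0.12 SE, edgeR adjusted p = 0.0012). Each call in this paragraph held in all 6 fits.

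**Figure D5:**
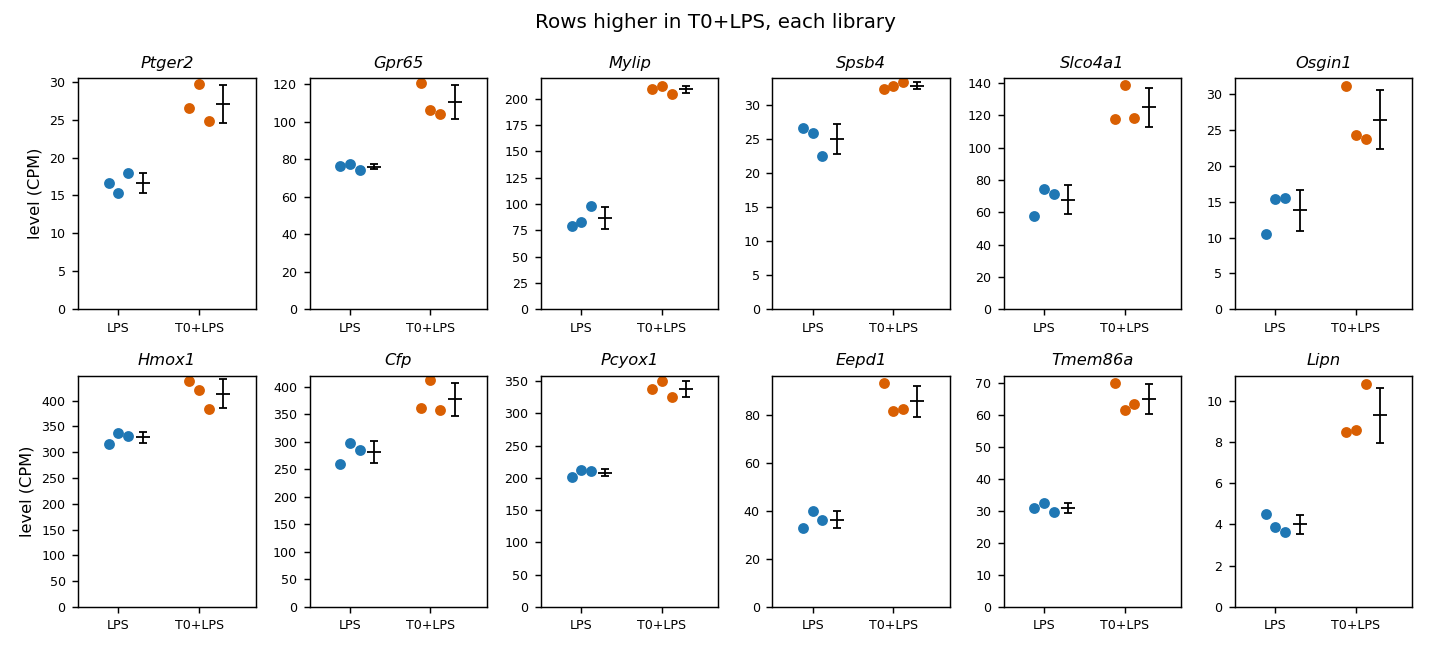
Level in CPM (vertical axes, from 0) of 12 genes in each LPS (blue) and T0+LPS (orange) library, with the mean and SD of 3 libraries in black. In every panel the 3 T0+LPS points lie above the 3 LPS points, for Gpr65 at 121, 106 and 104 CPM against 76.7, 77.2 and 74.5 CPM.

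Several large falls were on no functional list. Shisa3, an inhibitor of Wnt and FGF signaling, had no count in any Veh library and was at 9.57, 8.19 and 7.89 CPM in LPS and 3.36, 4.97 and 5.45 CPM in T0+LPS (log2 fold change -0.88 ± 0.17 SE, edgeR adjusted p = 0.0067). Col27a1, a fibrillar collagen chain, was at 18.0, 13.7 and 16.9 CPM in LPS and 7.51, 10.7 and 10.2 CPM in T0+LPS (log2 fold change -0.77 ± 0.14 SE, edgeR adjusted p = 0.0047), and Cdk5r1, the p35 activator of CDK5, at 17.8, 17.4 and 14.8 CPM in LPS and 8.87, 9.88 and 11.9 CPM in T0+LPS (log2 fold change -0.70 ± 0.12 SE, edgeR adjusted p = 0.0030). Both had Veh levels below 2 CPM. Enc1, an actin-associated protein, differed in that LPS had lowered it from 50.4, 55.2 and 52.5 CPM in Veh, and it was lower again in T0+LPS, at 16.8, 16.1 and 15.8 CPM in LPS and 9.51, 10.5 and 10.3 CPM in T0+LPS (log2 fold change -0.68 ± 0.09 SE, edgeR adjusted p = 0.00078). Lrrk2, a kinase mutated in Parkinson's disease and named here after its values were seen, was at 19.1, 17.5 and 19.2 CPM in LPS and 11.3, 13 and 11.9 CPM in T0+LPS (log2 fold change -0.62 ± 0.09 SE, edgeR adjusted p = 0.0015), close to its Veh levels of 10.2, 11.4 and 10.9 CPM. All of these calls held in every fit. Pira2, a paired immunoglobulin-like receptor and the only lower row of 22 for lectins and paired receptors, was at 15.5, 6.28 and 10.6 CPM in LPS and 4.65, 5.50 and 5.52 CPM in T0+LPS (log2 fold change -1.04 ± 0.24 SE, edgeR adjusted p = 0.029), and its call was lost in 4 fits, with an adjusted p of 0.078 to 0.16 without LPS 1, T0+LPS 1, T0+LPS 2 or T0+LPS 3, and 694 of its 3464 bases are shared with no other row.

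The remaining highly counted rows changed by less. The lower ones were Rnf149, a membrane-bound ubiquitin ligase (log2 fold change -0.23 ± 0.05), Myof, a ferlin of membrane repair (-0.22 ± 0.05), Kpna3, an importin (-0.21 ± 0.05), and Clic4, an intracellular chloride channel protein (-0.20 ± 0.05). The higher ones were Atp6v1b2, a subunit of the vacuolar proton pump (0.20 ± 0.04), Serp1, a protein of the endoplasmic reticulum (0.23 ± 0.05), Kctd12 (0.23 ± 0.04), Ninj1, which ruptures the plasma membrane of dying cells (0.23 ± 0.04), Prex1, an activator of Rac (0.25 ± 0.05), and Sdc3, a syndecan (0.26 ± 0.06). T0+LPS was apart from LPS in each. Leaving out 1 library ended the edgeR calls of Rnf149 (adjusted p 0.057 to 0.12 without LPS 1, T0+LPS 1 or T0+LPS 2), Myof (adjusted p 0.074 to 0.15 without LPS 1, T0+LPS 1 or T0+LPS 2), Kpna3 (adjusted p 0.11 to 0.18 without LPS 1, T0+LPS 1 or T0+LPS 2), Clic4 (adjusted p 0.058 to 0.19 without LPS 1, T0+LPS 1, T0+LPS 2 or T0+LPS 3), Atp6v1b2 (adjusted p 0.060 to 0.092 without LPS 1, T0+LPS 1 or T0+LPS 3), Serp1 (adjusted p 0.057 to 0.11 without LPS 1 or T0+LPS 2), Kctd12 (adjusted p 0.051 without LPS 1), Ninj1 (adjusted p 0.060 to 0.088 without LPS 1 or T0+LPS 2), Prex1 (adjusted p 0.096 to 0.13 without LPS 1 or T0+LPS 2) and Sdc3 (adjusted p 0.061 to 0.17 without LPS 1, T0+LPS 2 or T0+LPS 3).

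Called rows were in places neighbors in the genome. In mm10, 11 pairs of called rows lay within 50000 bases of each other, and 10 of them changed in the same direction. The share of such pairs among all tested rows was not computed, so these counts cannot be read as an excess. One pair, Rnaset2b and Rps6ka2, rests on a Rnaset2b row that spans chr17:6978860-8147832 and so covers Rps6ka2. Neurl2 (chr2:164830730-164833596), Ctsa (chr2:164833773-164841032) and the lipid transfer protein gene Pltp (chr2:164839518-164857708) rose next to each other on chromosome 2, where Ctsa and Pltp overlap. Nipsnap3b (chr4:53011924-53022059) rose 8730 bases from Abca1, with a log2 fold change of 0.29 ± 0.05 beside 1.47 ± 0.06. C1qb and C1qc are 3625 bases apart on chromosome 4. The pair that moved in opposite directions was Arl5c (log2 fold change 0.23 ± 0.05) and Stac2 (-0.26 ± 0.06). Whether the libraries record strand is not given in the sources used here, so reads of overlapping rows could not be told apart.

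Promoter windows of 300 bases from RefSeq (250 before and 50 after the start, GRCm38.p6) could be matched to 114 of the lower, 95 of the higher and 6763 of all tested rows. The LXR core hexamer, AGGTCA on either strand, was in 9.65% of the windows of lower rows, 8.42% of higher rows and 11.7% of all. The direct repeat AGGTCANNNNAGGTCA (DR4) with at most 2 mismatches, searched like every motif here on both strands and able to overlap the hexamer, was in 0% of lower, 1.05% of higher and 2.06% of all windows. The AP-1 motif TGANTCA was in 7.89% of lower, 5.26% of higher and 4.88% of all windows, and the κB motif GGGANNTCC in 8.77%, 2.11% and 5.91%. These shares describe letters in short windows and say nothing of binding. The bases before the start are shown for 4 genes whose level changed and whose window holds such letters: F3 (chr3:121723287-121723536, + strand), Il1a (chr2:129309973-129310222, - strand), Osgin1 (chr8:119436897-119437146, + strand) and Slco4a1 (chr2:180460728-180460977, + strand). Each is 250 bases, 5′ to 3′, and capitals mark the AP-1 motif in the first 3 and the hexamer, on either strand, in the last.
F3: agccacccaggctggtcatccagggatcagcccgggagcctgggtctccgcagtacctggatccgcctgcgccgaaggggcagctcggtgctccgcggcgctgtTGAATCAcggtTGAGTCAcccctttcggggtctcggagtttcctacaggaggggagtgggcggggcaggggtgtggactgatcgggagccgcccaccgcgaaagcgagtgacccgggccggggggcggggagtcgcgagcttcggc
Il1a: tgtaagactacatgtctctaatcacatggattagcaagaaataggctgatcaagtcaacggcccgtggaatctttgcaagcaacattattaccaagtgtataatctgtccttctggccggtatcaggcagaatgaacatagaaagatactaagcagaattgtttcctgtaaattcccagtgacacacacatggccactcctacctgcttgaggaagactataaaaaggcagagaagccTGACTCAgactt
Osgin1: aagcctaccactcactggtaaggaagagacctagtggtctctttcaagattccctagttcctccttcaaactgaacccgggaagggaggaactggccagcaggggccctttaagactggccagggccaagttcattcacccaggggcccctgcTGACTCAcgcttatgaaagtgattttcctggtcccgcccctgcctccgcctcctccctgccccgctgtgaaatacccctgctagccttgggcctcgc
Slco4a1: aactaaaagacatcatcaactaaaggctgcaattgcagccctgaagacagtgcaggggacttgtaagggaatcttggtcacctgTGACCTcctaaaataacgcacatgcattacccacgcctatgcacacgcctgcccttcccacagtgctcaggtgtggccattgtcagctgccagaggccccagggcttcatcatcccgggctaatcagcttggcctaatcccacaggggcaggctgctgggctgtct
The AP-1 matches of F3 begin 146 and 135 bases before the start, that of Il1a 12 bases and that of Osgin1 97 bases before it, and the hexamer of Slco4a1 begins 166 bases before it. F3 and Il1a were lower and Osgin1 and Slco4a1 higher in T0+LPS, so the AP-1 letters stood before genes of both directions.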

How the data were processed

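BMDMs were compared in groups mapped from the sample labels. The deposited file holds raw counts per RefSeq row, which the authors made by trimming adaptors with cutadapt, aligning to mm10 with HISAT2 and counting with featureCounts, without pooling replicates. The strand setting is not given in the sources used here. The deposited lists of the authors' own DESeq2 comparisons were not used.

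Counts of the 6 LPS and T0+LPS libraries were filtered with filterByExpr, scaled by TMM and tested with edgeR 4.0.16 (quasi-likelihood, Benjamini-Hochberg at 0.05) in R 4.3.3. The script was tested on simulated data. DESeq2 1.42.0 and limma 3.58.1 (voom) were alternatives. Libraries of 13299044 to 16467983 counts set the precision, and the SE of each fold change carries counting error and replicate spread. Members and functional lists (45 lists) were chosen with earlier results of these data known. Named genes were called list members, the 15 largest changes in each direction with at least 5 CPM and no overlap, the 10 most highly counted rows in each direction, and Ptgs2 and Il1b. A few rows that this rule takes in are not reported here, though they remain in the counts. LPS and T0+LPS libraries of the same replicate number had correlations of deviations of 0.0295, -0.121 and 0.00416. These cannot show whether such libraries shared a mouse, which the labels do not give, and the fit used no pairing. Replicates of a group differed by more than sampling noise (chi-square per degree of freedom 2.72 to 7.07).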

Additional observations from a re-analysis of the deposited data

How the results depend on the processing

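The counts of called rows depended most on single libraries. With every row of at least 1 count tested, edgeR gave 282 lower and 226 higher rows, but its prior degrees of freedom were then infinite (10.8 with filterByExpr), so each row's own replicate spread was ignored and these counts say nothing about stability. Chosen after seeing the data, a minimum of 3 counts (prior 13.9) gave 154 lower and 131 higher rows. Leaving out 1 library at a time gave 74 to 190 lower rows, 56 to 154 higher rows, 19 to 37 rows lower by over 1.5-fold and 31 to 42 higher by over 1.5-fold. The lowest of the first 2 counts came without LPS replicate 1, and 19 rows lower by over 1.5-fold were left without LPS replicate 1 or T0+LPS replicate 1. The cause was not tested. Scaling by library totals or by the size factors of DESeq2, a minimum of 10 counts, the tests of DESeq2 and limma-voom, all 9 libraries, summed rows and an adjusted p under 0.10 gave 160 to 229 lower and 116 to 184 higher rows, and DESeq2 called 141 of the 166 and 107 of the 128. Whether replicate numbers pair the libraries is not given in the labels. With the replicate number as a block, the calls were 202 lower and 147 higher, while 7 of the 165 named rows lost theirs. DESeq2 lost 18 of them and limma-voom 4. A robust prior in edgeR, also chosen after seeing the data, gave 167 lower and 137 higher rows and lost 14 named rows, with adjusted p of 0.325 for Il1a, 0.296 for Thbs1, 0.118 for Edn1 and 0.0886 for Ptx3. Rn45s, Pira2 and Cd5l were among the other rows lost with that prior (edgeR adjusted p of 0.418, 0.211 and 0.192). No named row changed direction under the alternatives run. With 3 cultures a group and 13534065 to 15495207 counts per library, small changes of scarce transcripts were not detectable.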

Other observations

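A few further called rows lay outside the functional lists and were named after their values were seen. Fam3c, a secreted FAM3 family protein, was at 41.7, 41.0 and 39.9 CPM in LPS and 67.6, 61.5 and 61.7 CPM in T0+LPS (log2 fold change 0.64 ± 0.06 SE, edgeR adjusted p = 1.3e-05), and Ksr2, a scaffold of the MAP kinase cascade, at 11.5, 9.28 and 9.70 CPM in LPS and 14.9, 16.2 and 15.6 CPM in T0+LPS (log2 fold change 0.62 ± 0.10 SE, edgeR adjusted p = 0.0031). Zfp558, a zinc finger protein, was at 10.8, 10.7 and 10.5 CPM in LPS and 6.79, 5.96 and 7.53 CPM in T0+LPS (log2 fold change -0.66 ± 0.12 SE, edgeR adjusted p = 0.0059). No library of one group reached the other group in these 3 rows, and their calls held in all 6 fits that left out 1 library.

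Jag1, a Notch ligand, was lower at 192, 171 and 192 CPM in LPS and 132, 153 and 149 CPM in T0+LPS (log2 fold change -0.35 ± 0.06 SE, edgeR adjusted p = 0.0049), and Ptpre, a receptor-type tyrosine phosphatase, at 373, 330.3 and 358 CPM in LPS and 265, 284 and 293 CPM in T0+LPS (log2 fold change -0.34 ± 0.05 SE, edgeR adjusted p = 0.0025). Rab11fip1, an effector of recycling endosomes, was lower at 60.2, 61.0 and 68.1 CPM in LPS and 43.2, 51.9 and 49.5 CPM in T0+LPS (log2 fold change -0.39 ± 0.07 SE, edgeR adjusted p = 0.0068). Cd300lb, an activating receptor of myeloid cells, was at 794, 745 and 742 CPM in Veh and 188, 207 and 199 CPM in LPS and 298, 259 and 238 CPM in T0+LPS (log2 fold change 0.42 ± 0.07 SE, edgeR adjusted p = 0.0026), and Abcc3, an exporter of organic anions, was higher at 116, 115 and 123 CPM in LPS and 139.8, 162 and 145 CPM in T0+LPS (log2 fold change 0.33 ± 0.06 SE, edgeR adjusted p = 0.0043). These 5 calls held in all 6 fits.

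Of the MHC region on chromosome 17, 4 rows were looked at after their values were seen, and 3 of them moved with single libraries. H2-Q1 was at 28.9, 0.887 and 1.16 CPM in LPS and 0.858, 1.57 and 0.909 CPM in T0+LPS, so LPS 1 alone was high, and its edgeR adjusted p was 0.14. Gm7030 was at 1.34, 17.7 and 8.83 CPM in LPS and 1.36, 1.24 and 2.08 CPM in T0+LPS, high in LPS 2 and LPS 3, and was called lower with overlapping groups (log2 fold change -2.58 ± 0.60, edgeR adjusted p = 0.029). Gm11127 was at 0.593, 0.751 and 1.01 CPM in LPS and 6.58, 1.70 and 2.86 CPM in T0+LPS, highest in T0+LPS 1, and was called higher (log2 fold change 2.21 ± 0.46, edgeR adjusted p = 0.015). Leaving out 1 library ended the edgeR calls of Gm7030 (adjusted p 0.064 to 0.12 without LPS 2, T0+LPS 1, T0+LPS 2 or T0+LPS 3) and Gm11127 (adjusted p 0.079 without LPS 1). H2-Q1, Gm7030 and Gm11127 differed widely between replicates of a group, so these 3 rows are uncertain, and the cause was not tested. H2-M2, the other row, was at 153, 153 and 135 CPM in LPS and 101, 114 and 125 CPM in T0+LPS (log2 fold change -0.38 ± 0.07, edgeR adjusted p = 0.0078), with no overlap between groups and an adjusted p of 0.0502 without LPS 1.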
